A study of Danio rerio with 40 samples.

Results

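The 10 genes described here encode enzymes of the prostaglandin and leukotriene pathway: ptgs1, ptgs2a, ptgs2b, ptgdsb.1, ptgdsb.2, ptges, ptgis, alox5a, alox12 and ephx2. These genes and the gene lists below were chosen by symbol, with earlier results of these data known. All 10 were found among the 19429 genes of the eye table and the 19300 genes of the brain table. RNA had been sequenced from whole eyes and whole brains of adult zebrafish of the knockout line wh5, in which cyp1b1 is the targeted gene, and of wild-type (WT) fish. Each organ had 10 wh5 and 10 WT samples, 5 of each sex, so that 40 samples form 8 groups. Sample titles and source fields disagree on the organ. The sample groups here follow the titles, and the eye and brain values follow the names of the tables. The base means of the photoreceptor gene rho, 632710 for eye against 1359 for brain, go with the organ names of the tables. Being pooled over samples, they do not show which label of a sample is right. The files give 1 comparison of wh5 with WT per organ, made by the authors with a model whose formula was not given. The table names state no sex, so both sexes are taken to have entered. Values of single samples and genotype means are not given. Each difference below is therefore a log2 fold change with its standard error (SE) from that model, positive where wh5 was higher, and levels are base means, the mean of normalised counts over both genotypes. In whole organs a change in the number of cells of a type and a change in RNA per cell cannot be told apart.

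Prostaglandins and leukotrienes are short-lived lipid signals made from arachidonic acid, which phospholipases release from membranes. Cyclooxygenases convert it to the common prostaglandin precursor, terminal synthases turn that precursor into prostaglandin D2, prostaglandin E2 or prostacyclin, and lipoxygenases open the route to leukotrienes and hydroxy fatty acids. A further route runs through cytochrome P450 enzymes, CYP1B1 among them in mammals, which make hydroxy and epoxy derivatives, and the soluble epoxide hydrolase then opens the epoxides. In the human eye prostaglandin receptors are the target of drugs that lower intraocular pressure, and mutations of CYP1B1 cause congenital glaucoma.

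No gene of the 10 passed an adjusted p (Benjamini-Hochberg) below 0.05 in either of the authors' deposited tables, where 1.67% of all genes in eye and 0.736% in brain did. At an unadjusted p below 0.05, 2 of the 10 passed in eye, both higher in wh5, and 1 in brain, lower in wh5. The 2 in eye were the tandem copies ptgdsb.1 and ptgdsb.2, which do not count as separate evidence. Over all genes 14.2% passed that limit in eye, with 7.23% of all genes passing and higher in wh5, and 8.62% passed it in brain, with 4.49% passing and lower in wh5. An empirical null was also used, in which the test statistics are centred on their median and rescaled to their own spread. With it none of the 10 passed in either organ, against 0.196% of all genes in eye and 0.399% in brain. The median log2 fold change of the 10 in the authors' deposited tables was 0.07 in eye and -0.03 in brain, beside 0.01 and -0.0014 over all genes of the same tables. For cyp1b1 the log2 fold changes were 0.54 (SE 0.14, adjusted p = 0.016) in eye and -0.17 (SE 0.14, adjusted p = 0.818) in brain in the authors' deposited tables, and the eye call is lost with an empirical null (adjusted p = 0.464). Its transcript level does not check the genotype labels. Directions rest on the names of the tables.

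**Figure D1:**
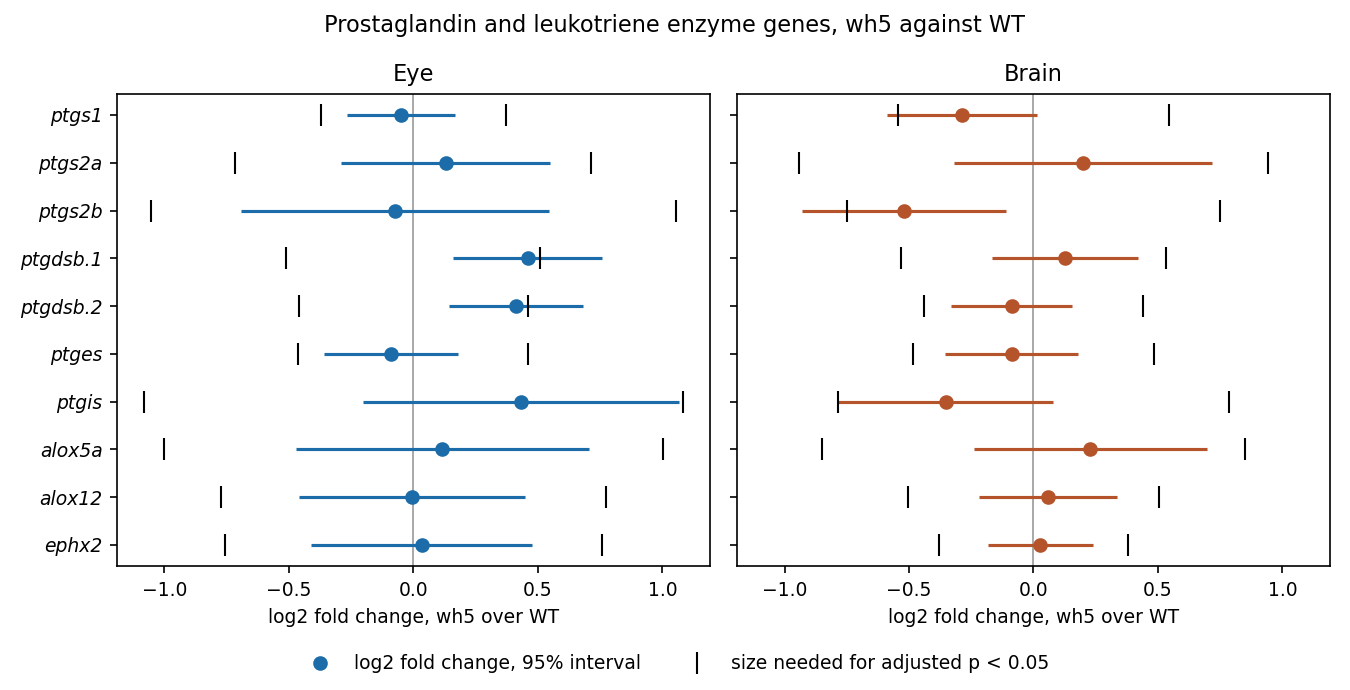
Log2 fold change of wh5 over WT (x axis) for each of the 10 genes in eye (left) and brain (right), with the 95% interval as a bar. Black ticks mark the size that each gene would have needed, at its own SE, for an adjusted p below 0.05, and no point lies beyond its ticks; ptgdsb.1 at 0.46 and ptgdsb.2 at 0.41 in eye come nearest.

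The cyclooxygenase genes, which encode the entry enzymes of prostaglandin synthesis, gave no call. The gene ptgs1 (NCBI Gene 246226) encodes the form that is constitutive in mammals. In the authors' deposited tables its log2 fold change was -0.05 (SE 0.11, adjusted p = 0.887) in eye and -0.29 (SE 0.15, adjusted p = 0.612) in brain. The 95% intervals on the fold scale were 0.831 to 1.12 in eye and 0.665 to 1.01 in brain. Both intervals lie within a 2-fold change in either direction.

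The inducible cyclooxygenase of mammals is represented by a pair of genes in zebrafish, ptgs2a (NCBI Gene 246227) and ptgs2b (NCBI Gene 559020). For ptgs2a the authors' deposited tables give 0.13 (SE 0.21, adjusted p = 0.839) in eye and 0.20 (SE 0.26, adjusted p = 0.913) in brain as log2 fold changes. For ptgs2b they give -0.07 (SE 0.32, adjusted p = 0.948) in eye and -0.52 (SE 0.21, adjusted p = 0.363) in brain, the authors' deposited tables again. The brain value of ptgs2b had an unadjusted p of 0.0133, the lowest of the 10 genes in that organ and the 705th lowest of all 19300 genes. Its 95% interval in brain ran from 0.524 to 0.928 on the fold scale, at a base mean of only 34.0 normalised counts.

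Each ptgs2 copy lies next to a copy of the cytosolic phospholipase A2 gene, which encodes the enzyme that supplies arachidonic acid, ptgs2a beside pla2g4aa and ptgs2b beside pla2g4ab. Gene order came from RefSeq for the assembly GRCz12tu, with 0 protein-coding genes between the partners. In the authors' deposited tables pla2g4aa had a log2 fold change of -0.14 (SE 0.14) in eye and 0.18 (SE 0.18) in brain, and pla2g4ab had -0.38 (SE 0.33) in eye and 0.21 (SE 0.33) in brain. None of these 4 values was called (adjusted p from 0.647 to 0.928). The signs of ptgs2a and pla2g4aa differed in eye and were the same in brain, while those of ptgs2b and pla2g4ab were the same in eye and differed in brain.

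The terminal synthases held the values nearest to a call. The genes ptgdsb.1 (NCBI Gene 336492) and ptgdsb.2 (NCBI Gene 751701) are tandem copies of a prostaglandin D2 synthase gene, whose mammalian counterpart of the lipocalin type both makes prostaglandin D2 and carries retinoids and other small lipids. In eye their log2 fold changes in the authors' deposited table were 0.46 (SE 0.15, p = 0.00267, adjusted p = 0.0916) for ptgdsb.1 and 0.41 (SE 0.14, p = 0.00283, adjusted p = 0.0938) for ptgdsb.2. On the fold scale these are 1.37 (95% interval 1.12 to 1.69) and 1.33 (1.103 to 1.603), and the genes ranked 566th and 586th of 19429 by p. At their SEs, log2 fold changes of 0.51 and 0.46 would have been needed for a call. The 2 values do not count as separate evidence: the copies are neighbours with no protein-coding gene between them in GRCz12tu, they may share reads, and the counting of shared reads was not given in the sources used here. With an empirical null their adjusted p was 0.784 for ptgdsb.1 and 0.788 for ptgdsb.2.

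In brain the same copies had log2 fold changes of 0.13 (SE 0.15, adjusted p = 0.899) for ptgdsb.1 and -0.09 (SE 0.12, adjusted p = 0.919) for ptgdsb.2 in the authors' deposited table. Their intervals there were 0.892 to 1.34 and 0.796 to 1.11 on the fold scale. Overlap of intervals does not test whether the organs differ, and the difference between organs is given below for each copy.

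Markers of surface epithelium were read beside these values. Among 17 such markers measured in eye, 16 had a positive log2 fold change, where 51.9% of all genes did, and the median was 0.42. Of the 17, 15 were not called and 2 rose (adjusted p = 0.0139 and 0.0192), where 0.973% of all eye genes rose. The 2 were the keratin gene krt97, by 1.08 (SE 0.28), and the epithelial calcium-binding gene icn2, by 0.79 (SE 0.21), in the authors' deposited table. With an empirical null neither was called (adjusted p = 0.433 for krt97 and 0.494 for icn2). Epithelial markers had a median of 0.36 in brain too, over 15 genes with none called and at a median base mean of 91.7. Markers of meninges and retinal pigment epithelium, where the mammalian lipocalin-type synthase is made, had a median of -0.06 over 13 genes in eye and -0.04 over 12 in brain, none called. Whether the epithelial share of the samples had a part in the ptgdsb values was not tested.

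The other terminal synthases were not near a call. The gene ptges (NCBI Gene 544666) encodes a prostaglandin E synthase and had log2 fold changes of -0.09 in both organs in the authors' deposited tables, with an SE of 0.14 in each and an adjusted p of 0.823 in eye and 0.924 in brain. Its fold intervals were 0.779 to 1.13 in eye and 0.782 to 1.13 in brain. The gene ptgis (NCBI Gene 559148) encodes the prostacyclin synthase, itself a member of the cytochrome P450 superfamily. Its log2 fold change was 0.43 (SE 0.32, adjusted p = 0.578) in eye and -0.35 (SE 0.22, adjusted p = 0.712) in brain in the authors' deposited tables. The eye value of ptgis lay between those of the ptgdsb copies, but its 95% fold interval of 0.869 to 2.09 includes 1, and a log2 fold change of 1.08 would have been needed for a call. Markers of endothelium, a main source of prostacyclin in mammals, had medians of -0.13 over 14 genes in eye and 0.02 over 14 in brain, none called.

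Neither lipoxygenase gene was near a call. The gene alox5a (NCBI Gene 567204) encodes a 5-lipoxygenase, the enzyme that starts leukotriene synthesis in leukocytes. In the authors' deposited tables it had 0.12 (SE 0.30, adjusted p = 0.906) in eye and 0.23 (SE 0.24, adjusted p = 0.880) in brain as log2 fold changes. Fold intervals of 0.721 to 1.63 in eye and 0.847 to 1.62 in brain leave changes of that size undetected. It is the 1 gene of the 10 on the chromosome of cyp1b1 in the GRCz12tu gene table.

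For alox12 (NCBI Gene 322732), the gene of a 12-lipoxygenase, the authors' deposited tables give log2 fold changes of -0.0043 (SE 0.23, adjusted p = 0.998) in eye and 0.06 (SE 0.14, adjusted p = 0.957) in brain. The brain interval, 0.86 to 1.26 on the fold scale, is the tighter, and the eye interval ran from 0.728 to 1.37. Leukocytes and thrombocytes are known for lipoxygenases, and their markers were read beside these values. Of 9 neutrophil markers in eye 8 had positive values, where 51.9% of all eye genes did. The median over the 9 was 0.59, with a median SE of 0.41, and none was called. The median over 21 macrophage and microglia markers was 0.04, with 12 positive and 9 negative values, from -0.70 to 1.203. Over 8 thrombocyte markers, 6 positive and 2 negative, it was 0.09. In brain these medians were -0.02, -0.05 and -0.0080, over 9, 21 and 8 genes. Among all these markers the macrophage gene mpeg1.2 alone was called, in eye, where 1.67% of all genes were called. It had a log2 fold change of 1.203 in the authors' deposited table (SE 0.33, adjusted p = 0.022, and 0.525 with an empirical null). The part of mpeg1.2 in the lipoxygenase values was not tested.

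The soluble epoxide hydrolase gene ephx2 (NCBI Gene 494099), which acts on the products of the cytochrome P450 route, had a log2 fold change of 0.03 in both organs in the authors' deposited tables, with SEs of 0.23 in eye and 0.11 in brain and adjusted p-values of 0.972 in eye and 0.974 in brain. Its fold interval was 0.752 to 1.39 in eye and 0.882 to 1.18 in brain. The brain interval is the narrowest of all 10 genes there.

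The spread behind these values also differed between genes and organs. In eye 4 genes had an SE larger than those of over 90% of genes within a factor of 2 of their base mean: for ephx2 5.29% of such genes had a larger SE, for ptgs2b 5.80%, for ptgs2a 6.33% and for ptgis 6.46%. In brain the share of like genes with a larger SE was 31.7% for ephx2, 82.7% for ptgs2b, 14.6% for ptgs2a and 66.0% for ptgis, and it was lowest for ptgdsb.1, at 5.26%. The widest interval of the 10 in eye was that of ptgis and in brain that of ptgs2a. Without values of single samples, it cannot be said whether sex, genotype or single fish carried this spread.

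The levels of these genes were higher in eye than in brain. All 10 genes had a higher base mean in the eye table than in the brain table, where 47.5% of the 18275 genes in both tables did, and the median ratio of eye over brain was 4.31 for the 10 genes and 0.960 over all genes. The tables were normalised separately and no sample values are given, so that these ratios carry no error and no test. The largest ratio was that of ptgs2a, with base means of 1995 in eye and 106 in brain, a ratio of 18.8. Next came ptgdsb.1 with 27874 in eye and 4082 in brain (ratio 6.83) and ptges with 856 in eye and 128 in brain (6.68).

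The ratio was 6.07 for ptgs2b, at base means of 206 in eye and 34.0 in brain, and 4.98 for ptgs1, at 382 in eye and 76.6 in brain. Genes of the prostacyclin and leukotriene routes were lower in this order, with 3.65 for ptgis (157 in eye, 43.1 in brain) and 2.09 for alox5a (104 in eye, 49.9 in brain). The second ptgdsb copy stood apart from the first, with 16321 in eye and 7972 in brain, a ratio of 2.05. For ephx2 the ratio was 1.56 (1071 in eye, 684 in brain) and for alox12 it was 1.15 (224 in eye, 195 in brain). Rhodopsin, made in photoreceptors, had a ratio of 466 and the epithelial keratin gene krt5 one of 306. The ratios of the 10 genes lie far below both. Among all genes measured in both organs, 96.1% had a lower ratio than ptgs2a and 60.1% a lower one than alox12. Not all marker genes found in eye were higher there than in brain. The neuronal gene elavl3 had base means of 3012 in eye and 11919 in brain, and the glial gene glula 19225 in eye and 36991 in brain.

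**Figure D2:**
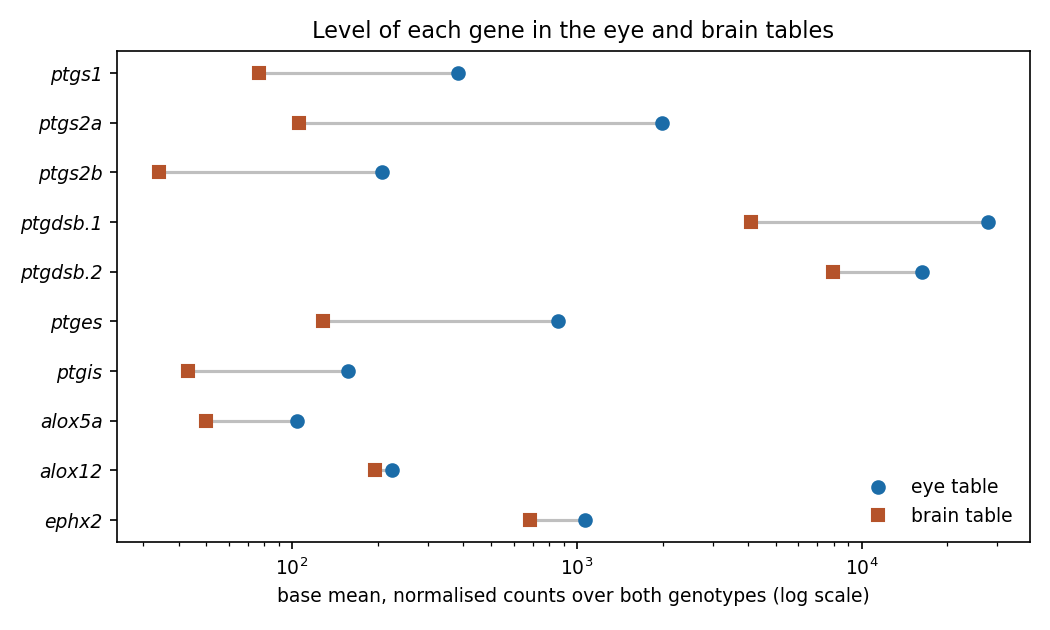
Base mean of each gene in the eye table (circles) and the brain table (squares), in normalised counts over both genotypes on a log axis. Every circle lies right of its square, from a ratio of 1.15 for alox12 to 18.8 for ptgs2a.

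All 15 rod and cone markers measured in brain had a negative log2 fold change, with a median of -2.39. Of these 4 fell and 11 were not called, where 0.368% of all brain genes fell. At an unadjusted p below 0.05, 12 of the 15 were lower in wh5, where 4.49% of all brain genes were. The 16 such genes in eye had a median of 0.10 with none called. The median base mean of the rod and cone markers was only 85.4 in brain, beside 29530 in eye. Their median SE in brain was 0.90. The blue cone opsin gene opn1sw2 (log2 fold change -3.85, SE 1.03, adjusted p = 0.0301) and the cone arrestin gene arr3b (-3.01, SE 0.75, adjusted p = 0.0137) were among those called in the authors' deposited table for brain. With an empirical null none of the 15 was called (adjusted p = 0.119 for opn1sw2 and 0.064 for arr3b). The part of these markers in the brain values of the 10 genes was not tested.

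Whether the effect of wh5 differed between organs was tested gene by gene as the difference of the log2 fold changes, eye minus brain, over the SE of that difference. None of the 10 passed an adjusted p (Benjamini-Hochberg over 18275 genes) below 0.05, a limit that 0.0821% of all genes passed. At an unadjusted p below 0.05, 2 of 10 passed against 8.19% of all genes, and none passed with an empirical null, against 0.00547% of all genes. The difference was 0.50 (SE 0.18) for ptgdsb.2, with a normal p of 0.00698 and an adjusted p of 0.450. For ptgis it was 0.78 (SE 0.39), with a normal p of 0.0453 and an adjusted p of 0.606. These values take the organs as independent, and whether the organs share fish is not known. At an assumed correlation of 0.3 between organs the adjusted p of ptgdsb.2 was 0.0910.

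The first of these differences pairs 0.41 in eye with -0.09 in brain, and the second pairs 0.43 in eye with -0.35 in brain, all log2 fold changes of the authors' deposited tables. The tandem partner ptgdsb.1 had a difference of 0.33 (SE 0.21, adjusted p = 0.705). Among cyclooxygenases the differences were 0.45 (SE 0.38, adjusted p = 0.789) for ptgs2b, 0.24 (SE 0.19, adjusted p = 0.770) for ptgs1 and -0.07 (SE 0.34, adjusted p = 0.982) for ptgs2a. The remaining 4 lay between -0.11 for alox5a and 0.0050 for ephx2, with ptges at -0.0020 (95% interval -0.38 to 0.38).

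**Figure D3:**
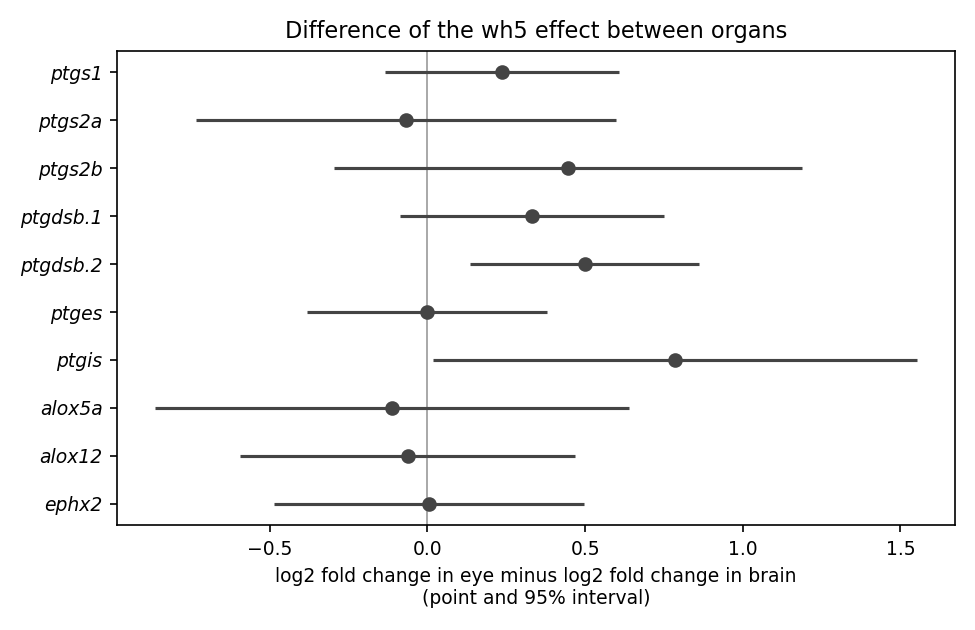
Log2 fold change of wh5 over WT in eye minus that in brain (x axis) for each of the 10 genes, with 95% intervals. The intervals of ptgdsb.2 (0.14 to 0.86) and ptgis (0.02 to 1.55) lie above 0, and those of the other genes include 0.

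Around the 10 enzymes, a list of 95 further symbols of the pathway was read in 7 groups by role, with 65 genes found in eye and 60 in brain. In eye 1 rose and 1 fell, where 0.973% of all genes rose and 0.700% fell. In brain none was called. At an unadjusted p below 0.05, 4 genes of the list were higher in wh5 and 3 lower in eye, where 7.23% of all genes were higher and 6.99% lower. In brain 1 of the 60 was higher and 1 lower at that limit, against 4.13% and 4.49% of all genes. The median log2 fold change of the list was -0.03 in eye and 0.03 in brain, beside 0.01 and -0.0014 over all genes. The gene that rose was ptger4a, 1 of the zebrafish copies of the prostaglandin E2 receptor EP4, for which the authors' deposited table for eye gives 0.65 (SE 0.14, adjusted p = 0.00151) on the log2 scale and a base mean of 135. It is not listed in the brain table, so that its organ difference could not be tested, and with an empirical null its adjusted p in eye was 0.192. Its paralogue ptger4b had -0.14 (SE 0.13, adjusted p = 0.681) in eye and 0.06 (SE 0.15, adjusted p = 0.961) in brain in the authors' deposited tables.

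The gene that fell was mgll, for monoacylglycerol lipase, which breaks down the endocannabinoid 2-arachidonoylglycerol and in doing so frees arachidonic acid in mammalian brain. In the authors' deposited tables it had -0.26 (SE 0.07, adjusted p = 0.0162) in eye and -0.04 (SE 0.06, adjusted p = 0.931) in brain as log2 fold changes. The difference between organs was -0.23 (SE 0.09, adjusted p = 0.524), and with an empirical null mgll was not called in eye (adjusted p = 0.407). Glial and neuronal markers also had negative medians in eye, -0.16 for glial and -0.10 for neuronal markers, over 10 genes each. Of the glial genes glula alone was called, where 0.700% of all eye genes were called lower, and no neuronal gene was. The log2 fold change of glula was -0.26 in the authors' deposited table (SE 0.07, adjusted p = 0.0296, and 0.510 with an empirical null). In brain the medians were -0.09 for glial and 0.0038 for neuronal markers, over 10 genes each, none called. The part of these markers in the mgll value was not tested.

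**Figure D4:**
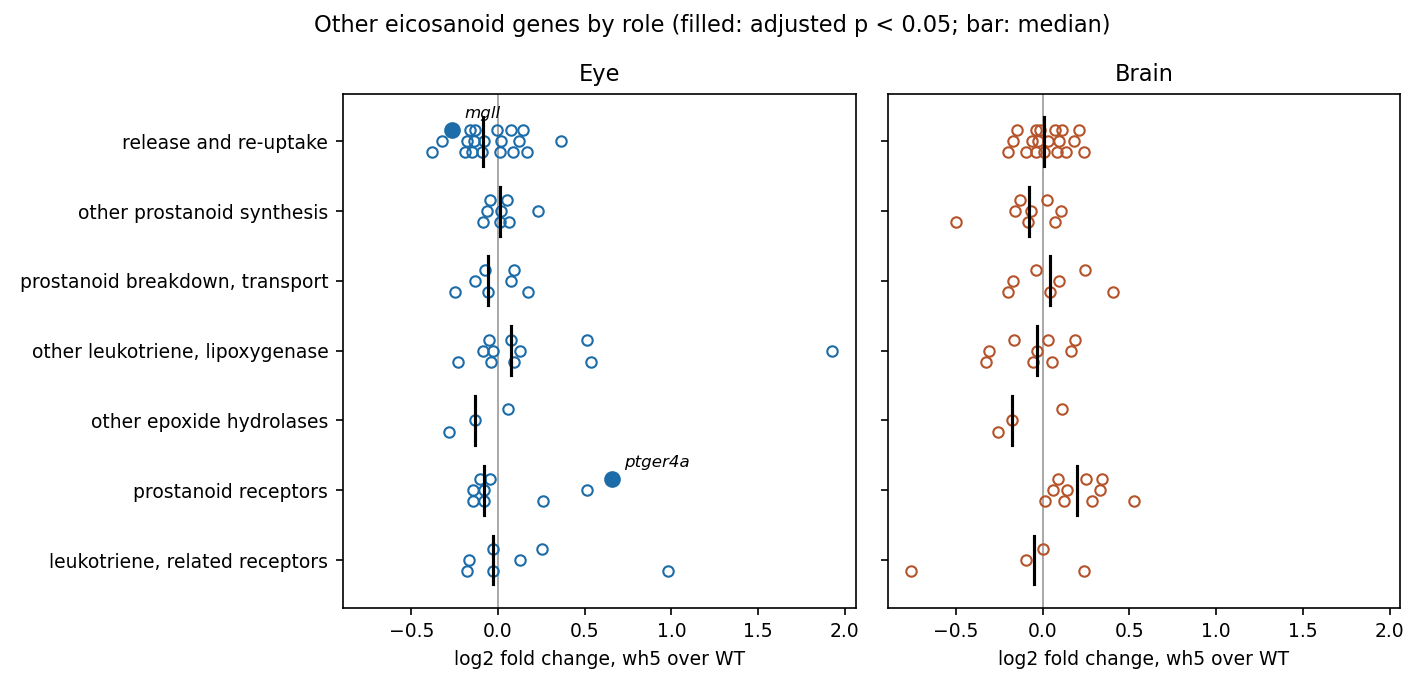
Log2 fold change of wh5 over WT (x axis) for the other genes of the pathway in eye (left) and brain (right), 1 circle per gene, grouped by role, with a black bar at each group's median. Filled circles mark an adjusted p below 0.05, reached by ptger4a at 0.65 and mgll at -0.26, both in eye.

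By role, genes of arachidonic acid release and re-uptake had a median of -0.09 over 20 genes in eye and 0.0093 over 19 in brain. The endocannabinoid-producing lipase gene dagla (0.08, SE 0.25 in eye; 0.24, SE 0.25 in brain) and the fatty acid activating genes acsl4a (-0.13, SE 0.15; -0.06, SE 0.10) and acsl3b (-0.15, SE 0.07; 0.10, SE 0.07) were not called in the authors' deposited tables. Other prostanoid synthesis genes had medians of 0.01 in eye and -0.08 in brain, over 8 genes each. Among them the cytosolic prostaglandin E synthase genes ptges3a (-0.06, SE 0.11 in eye and -0.16, SE 0.10 in brain) and ptges3b (-0.09, SE 0.10 in eye and -0.13, SE 0.06 in brain) were not called in the authors' deposited tables. Nor was ptgesl, matched by the older symbol ptges2 (0.02, SE 0.08 in eye and -0.07, SE 0.09 in brain). The thromboxane synthase gene tbxas1 had 0.06 (SE 0.12) in eye and 0.02 (SE 0.09) in brain in the authors' deposited tables, with a fold interval of 0.898 to 1.15 in brain.

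Genes of prostanoid breakdown and transport had medians of -0.06 in eye and 0.04 in brain over 7 genes each. The export pump gene abcc4 had -0.13 (SE 0.09) in eye and 0.25 (SE 0.18) in brain, and the transporter gene slco2b1 had 0.09 in both organs (SE 0.14 in eye, 0.19 in brain), by the authors' deposited tables. The lowest unadjusted p of this group was that of the prostaglandin reductase gene ptgr2 in brain, with 0.41 (SE 0.15, p = 0.00627, adjusted p = 0.252), beside 0.17 (SE 0.16) in eye, by the authors' deposited tables. The prostaglandin transporter gene slco2a1 had -0.25 (SE 0.10, p = 0.0185, adjusted p = 0.224) in eye and 0.04 (SE 0.10) in brain in the authors' deposited tables. For ptgr1, another reductase gene, the authors' deposited tables give -0.06 (SE 0.46) in eye and -0.17 (SE 0.59) in brain, with fold intervals of 0.514 to 1.80 in eye and 0.397 to 1.98 in brain. The other epoxide hydrolase genes had medians of -0.13 in eye and -0.18 in brain over 3 genes, ephx1, ephx4 and ephx5, with values from -0.29 to 0.11 in the authors' deposited tables.

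Other leukotriene and lipoxygenase genes had medians of 0.07 over 11 genes in eye and -0.03 over 9 in brain. The 5-lipoxygenase activating protein gene alox5ap, the partner of alox5a, had -0.04 (SE 0.30) in eye and 0.18 (SE 0.25) in brain, and the leukotriene A4 hydrolase gene lta4h -0.03 (SE 0.28) in eye and 0.16 (SE 0.12) in brain, by the authors' deposited tables. The microsomal glutathione transferase genes mgst3a (0.51, SE 0.21 in eye; 0.05, SE 0.31 in brain) and mgst3b (0.09, SE 0.09; -0.03, SE 0.07) were not called in the authors' deposited tables. The highest value of this group belonged to alox5b.2, a tandem copy of the second 5-lipoxygenase gene, which the authors' deposited table for eye lists at 1.93 (SE 0.58, adjusted p = 0.0538) and a base mean of only 5.41. Its neighbour in name alox5b.3 had -0.23 (SE 0.27) in eye and -0.31 (SE 0.35) in brain in the authors' deposited tables, and alox5b.2 is not listed in brain.

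Receptors had no further call. All 10 prostanoid receptor genes in the brain table had positive log2 fold changes, from 0.01 to 0.53 with a median of 0.20, where 49.5% of all genes were positive. None of the 10 was called or had an unadjusted p below 0.05, and 2 had a base mean below 10. The lowest unadjusted p was that of the EP3 receptor gene ptger3, 0.28 (SE 0.15, p = 0.0648, adjusted p = 0.627), followed by the EP2 receptor gene ptger2b, 0.33 (SE 0.19, p = 0.0761, adjusted p = 0.650), in the authors' deposited table for brain. In eye 6 of 9 such genes were negative, with a median of -0.08, and the authors' deposited table for eye has ptger3 at -0.08 (SE 0.27) and ptger2b at -0.14 (SE 0.16). The 7 prostanoid receptor genes in both tables had a median difference of -0.36, eye minus brain, and none was called in that comparison.

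Leukotriene and related receptors had medians of -0.03 over 7 genes in eye and -0.05 over 4 in brain. The cysteinyl leukotriene receptor gene cysltr1 had the highest value in eye, 0.98 (SE 0.31, adjusted p = 0.075, base mean 32.6) in the authors' deposited table, and is not listed in brain. The leukotriene B4 receptor gene ltb4r had 0.25 (SE 0.40) in eye and 0.24 (SE 0.29) in brain, gpr17 had -0.18 (SE 0.18) in eye and 0.0013 (SE 0.14) in brain, and the chemerin receptor gene cmklr1 had -0.17 (SE 0.32) in eye and -0.10 (SE 0.18) in brain, all in the authors' deposited tables.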

How the data were processed

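Poly(A) RNA of 40 samples was grouped by organ, genotype and sex from the sample titles. Titles and source fields disagree on the organ in every sample. Base means (rhodopsin 632710 in the eye table, 1359 in the brain table) go with the table names and, being pooled, do not check the labels of single samples. The labels do not say whether samples are separate fish, so p-values measure the spread between samples, nor whether the organs share fish. Per the submitters' processing notes, fastp, STAR and DESeq2 1.32.0 were used with build GRCz11, with no formula or filters given. Per the file headers, each table holds the log2 fold change and its SE, a base mean (a signal, normalised counts averaged over both genotypes), a test statistic (a score, the fold change over its SE) and a p-value with its adjusted value, all made by the authors. Base 2 of the logarithm and the averaging of base means over both genotypes are taken from the named tool. The deposited adjusted p equals Benjamini-Hochberg over the table within a relative difference of 0.00453. Depth per library is unknown, and no count model was fitted.

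Calls use the deposited adjusted p below 0.05, and 95% intervals are normal. Organ effects were compared by the difference divided by its SE, with both organs taken as independent. The size needed for a call is the statistic of the weakest call, 3.34 in eye and 3.56 in brain, times the SE. Lists were described by counts and medians. Of 95 pathway symbols, 69 genes were in a table, 2 by an older symbol, 25 symbols are not listed and 1, ptger2l, names the same gene as another symbol of the list. The members and lists were chosen with earlier results of these data known. Named were all members, cyp1b1, called genes (up to 3 per marker list) and the 3 of highest base mean per pathway list. After values were seen, pla2g4aa, pla2g4ab, alox5ap, alox5b.2, alox5b.3, cysltr1, tbxas1, ptgr2, slco2a1, rho, krt5 and elavl3 were added. Gene order and linkage came from RefSeq for GRCz12tu, which places 96.4% of eye and 96.1% of brain genes. That build differs from GRCz11, so coordinates are left out. The planned protein identities are not reported here. The scripts' statistics were tested on simulated data. matplotlib 3.10.9, scipy 1.17.1, numpy 2.4.6 and pandas 2.3.3 ran under Python 3.11.15.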

Additional observations from a re-analysis of the deposited data

How the results depend on the processing

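The count of called genes among the 10 stayed at 0 in eye, in brain and in the difference between organs under every alternative run. For the organs these were an empirical null, a base mean of at least 10, another adjustment (Benjamini-Yekutieli) and the chromosome of cyp1b1 left out. For the difference they were an empirical null, the base mean minimum and a correlation of 0.3 between organs. Most of these could hardly add a call, so the unchanged count says little. Benjamini-Yekutieli can only raise an adjusted p, robust SDs above 1 widen the empirical null, and the base mean minimum removes none of the 10. With an empirical null 0.196% of all genes passed in eye, 0.399% in brain and 0.00547% in the difference. Shares under the other alternatives are not given here. The lowest adjusted p reached by any of the 10 was 0.0908 in eye (ptgdsb.1), 0.356 in brain (ptgs2b) and 0.0910 in the difference (ptgdsb.2, with the correlation of 0.3). Leaving out the chromosome of cyp1b1 removes alox5a, which then has no value. The 2 pathway genes called in eye became 0 with an empirical null and 1, ptger4a, with the Benjamini-Yekutieli adjustment, an alternative added for these genes after seeing the data. With that adjustment mgll had an adjusted p of 0.169. The eye call of cyp1b1 was lost with both, at adjusted p of 0.464 and 0.168, and no gene of the marker lists was called with an empirical null. The eye statistics have a median of 0.061 and a robust SD of 1.317, and those of brain a median of -0.012 and a robust SD of 1.104. The empirical null subtracts the median and divides by the robust SD. No paired analysis was possible because the files hold no values of single samples, and for the same reason no replicate was left out. Depth per library is unknown, so its limit on single genes was not measured.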
